A study of Mus musculus with 4 samples.

Results

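The genes described here are 35 interferon-stimulated genes of the mouse that lie outside the large Oas, Ifit, Ifitm, Gbp, Irg, Parp and sensor families. They were chosen by name, with earlier results of these data known. Each of the 35 symbols matched a single row of the 27179-gene count table. The cells were plasmacytoid dendritic cells (pDCs) of strain C57BL/6, raised for 8 days from precursors of the bone marrow in Flt3 ligand and then exposed for 24 h to imiquimod (IMQ), a ligand of the receptor TLR7, at 1 µg/ml. Sorted pDCs were divided into cells positive and cells negative for BFP, the blue fluorescent reporter of Cxcl10, with 2 libraries in each group. The sorting gates named are SiglecH, a pDC surface lectin, and CD11b, but which side of the CD11b gate was kept is not clear from the labels. Both groups received imiquimod, no unstimulated library was analysed here, and the labels do not say how many mice gave the cells, so the p-values measure only the spread between these libraries. Levels are CPM, read counts scaled to library size, and each list of 4 values runs through BFP-negative replicates 1 and 2 and then BFP-positive replicates 1 and 2. A log2 fold change is BFP-positive over BFP-negative written as value ± standard error (SE), and a gene was called where edgeR's quasi-likelihood test, adjusted over all 11706 genes tested, gave an adjusted p under 0.05.

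Type I interferon binds the receptor chains Ifnar1 and Ifnar2, whose Jak kinases activate transcription factors. With Irf9 these form a complex that binds the interferon-stimulated response element (ISRE) in gene promoters and switches on the genes described here. Their products mark or modify proteins, degrade or edit RNA, deplete nucleotides or build nuclear bodies, and several feed back on the interferon pathway itself. pDCs are known for secreting much type I interferon and for holding high amounts of Irf7, a factor that drives interferon genes, before any stimulus.

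Of the 35 genes, 34 had enough counts to be tested. Among these 34, 12 rose in BFP-positive cells (35.3%, against 7.60% of all genes tested) and 2 fell (5.88%, against 3.51%). The 12 that rose were Rtp4, Isg20, Cmpk2, Epsti1, Phf11d, Phf11b, Samhd1, Nmi, Rsad2, Xaf1, Usp18 and Ifi27l2a, and the 2 that fell were Ifi44 and Lgals9. The other 20 tested genes did not pass. The 2 shares over all genes, 7.60% higher and 3.51% lower, also stand behind the counts in the smaller groups below. No such group was tested as a set. A rise of at least 2-fold was called for 7 of the 34, against 5.05% of all genes tested. The median log2 fold change over the 34 was 0.29, against -0.02 over all genes tested, and from CPM ratios of same-numbered libraries it was 0.31 for number 1 and 0.29 for number 2. Both BFP-positive values lay above both BFP-negative values in 20 of the 34 genes, against 27.1% of all genes tested, and below them in 4, also against 27.1%. The remaining 10 overlapped. Without BFP-positive replicate 1 neither fall was called.

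**Figure D1:**
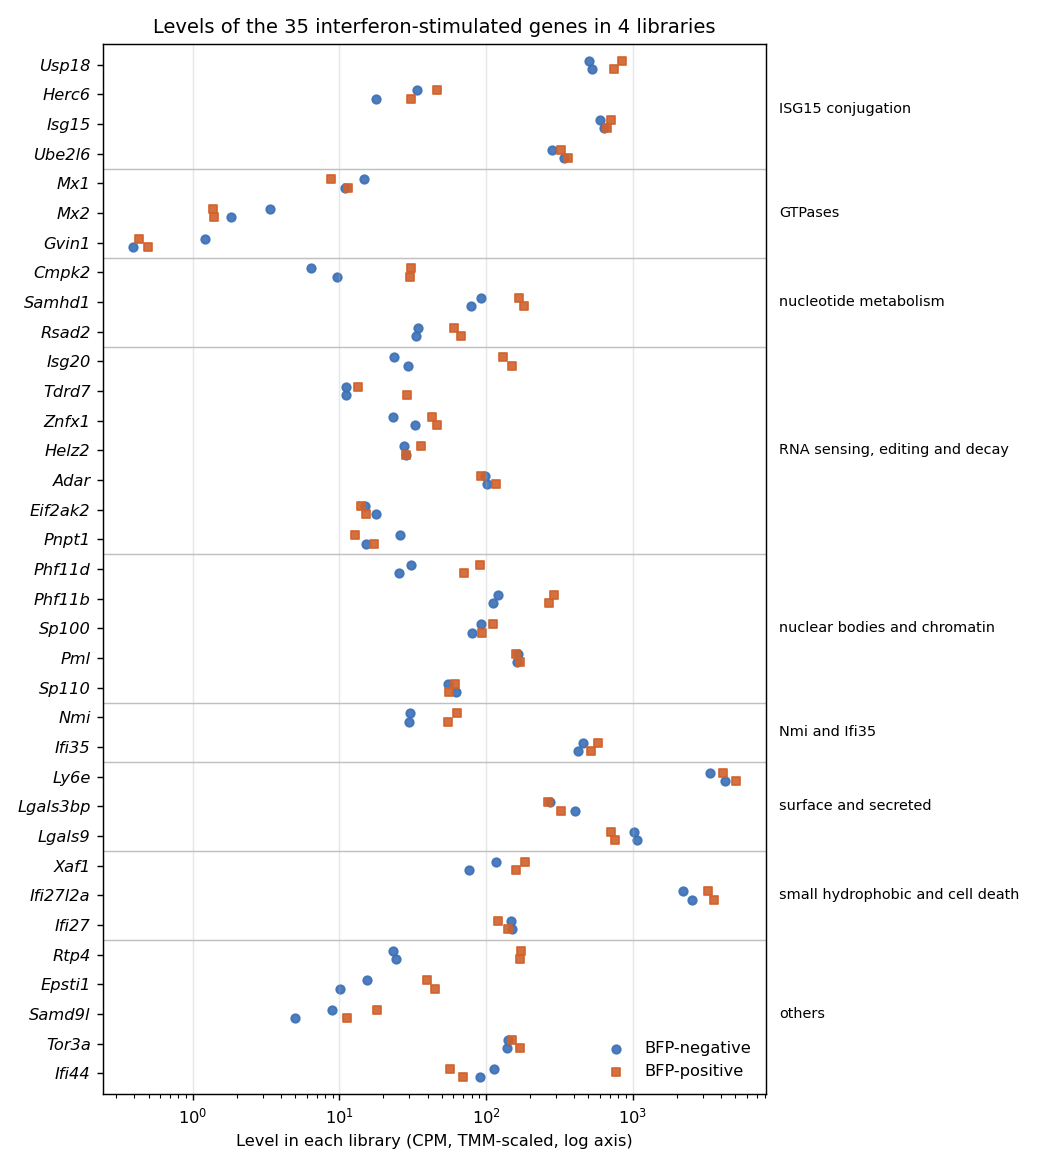
Level of each of the 35 genes in each of the 4 libraries, in CPM on a log axis, with circles for BFP-negative and squares for BFP-positive libraries and the genes grouped by role. The levels ran from at most 1.21 CPM for Gvin1 to at least 3393 CPM for Ly6e, and the 2 populations stood widest apart for Rtp4 and Isg20.

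The genes were far from equally abundant. On the deposited log2 RPKM scale, which corrects for gene length, Ifi27l2a stood highest with group means of 12.34 (BFP-negative) and 12.82 (BFP-positive). Ly6e followed with log2 RPKM means of 10.72 and 10.93, and Isg15 with 9.71 and 9.80. At the other end were Samd9l (0.36 and 1.40), Mx2 (0.07 and -0.82) and Gvin1 (-3.64 and -4.27). In BFP-negative cells 23 of the 35 genes stood above the median log2 RPKM of the genes tested, and in BFP-positive cells 25 did. Together the 35 genes took 1.05% and 1.16% of the counts of the BFP-negative libraries and 1.28% and 1.38% of those of the BFP-positive ones. Ly6e and Ifi27l2a alone made up 54.8% to 60.8% of these counts, so that sum says little about the others. The order of abundance shifted for the genes that rose most. By log2 RPKM, Rtp4 went from above 63.7% of the genes tested in BFP-negative cells to above 90.3% in BFP-positive cells, and Isg20 from above 70.7% to above 90.9%.

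**Figure D2:**
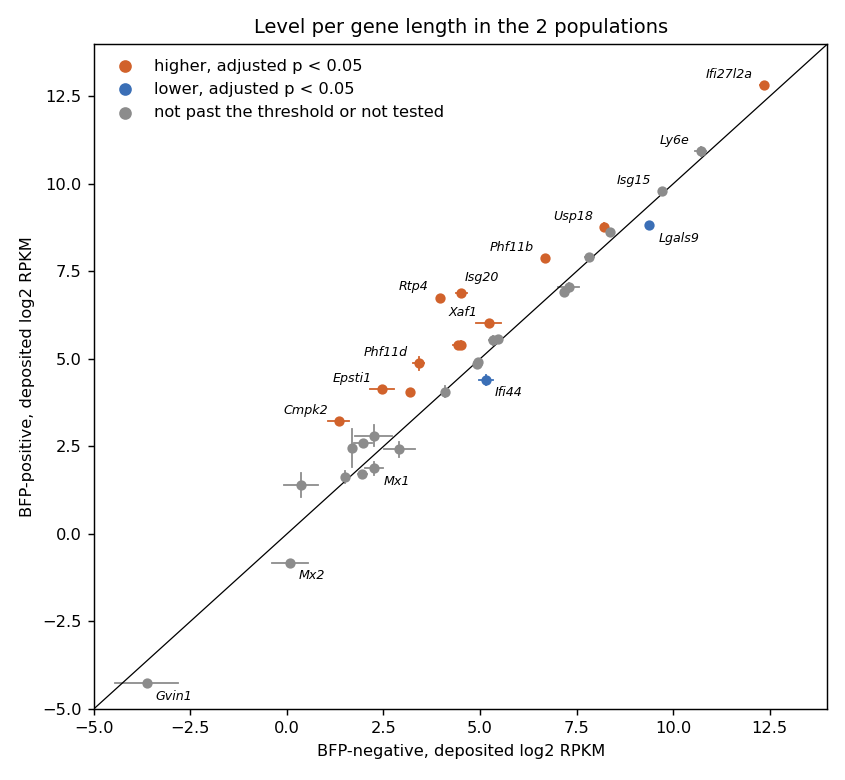
Mean deposited log2 RPKM of each gene in BFP-negative (x axis) and BFP-positive cells (y axis), with thin lines from the lower to the higher of the 2 libraries of each group and a diagonal of equal level. Rtp4 and Isg20 lie farthest above the diagonal from a middle level, whereas the abundant Ly6e and Isg15 lie close to it.

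Marker genes of several cell types differed between the groups, some higher and some lower in BFP-positive cells. Over all genes tested, 7.60% were called higher and 3.51% lower. The pDC marker genes summed to 21408 and 25489 CPM in the BFP-negative libraries and 17543 and 16621 CPM in the BFP-positive ones, high in both groups. Of 9 such markers, 1 was higher and 4 were lower. Ly6d, which fell, made up most of these sums (17289, 20947, 13612 and 12571 CPM), so they say little about the others. Of 13 tested markers of conventional dendritic cells, 6 rose and 1 fell, with sums of 710 to 711 CPM and 971 to 1015 CPM. Id2, which was not called, was the largest part of these sums (488, 419, 509 and 463 CPM). Monocyte and macrophage markers rose in 6 of 9 cases and fell in 2, with sums of 641 to 777 CPM and 1386 to 1535 CPM. Their largest part was Ly6c2, which rose (299, 379, 777 and 897 CPM), while C1qa had no count in any library. B and plasma cell markers fell in 3 of 5 cases, with sums of 130 to 136 CPM and 97.2 to 101 CPM. Most of these sums was Cd79b, which was not called (90.1, 96.2, 90.2 and 96.7 CPM). Of 5 T and NK cell markers, which summed to 3.55 to 10.7 CPM and 6.01 to 9.05 CPM, 2 were tested and neither was called. In the order given above, the NK-linked genes held 0, 5, 34 and 20 counts for Nkg7 (log2 fold change of 3.46 ± 1.27, adjusted p = 0.119), 0, 0, 8 and 22 for Ncr1 and 133, 40, 28 and 67 for Klrb1c, so Nkg7 and Ncr1 stood higher in both BFP-positive libraries. The T cell gene Cd3g had no count in any library, and Cd3e had 1 count in 1 library. The neutrophil markers summed to at most 21.8 CPM. The part of such cells in the values given here was not tested, and in sorted bulk samples a change in the number of cells of a type and a change in RNA per cell cannot be told apart. Cxcl10 itself, the gene of the reporter, held 3 and 19 counts in the BFP-negative and 149 and 154 in the BFP-positive libraries. Its RNA was thus higher on the side sorted for BFP, although the sort used the reporter and not this RNA.

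Promoter sequence was searched for the element through which type I interferon acts. RefSeq promoter windows of assembly GRCm38.p6 (250 bases before the start site and 50 from it) matched 26 of the 35 genes in 35 windows. Not matched were Rtp4, Usp18, Ifi27l2a, Ly6e, Tor3a, Ifi27, Mx1, Mx2 and Gvin1. The ISRE core, written GAAA, any 2 bases and GAAA again and searched on both strands, was in 6 of the 35 windows (17.1%), against 3.44% of all 32851 windows. The 6 genes were Rsad2 and Phf11b, which rose, Lgals9, which fell, and Isg15, Tdrd7 and Eif2ak2, which did not pass. A match was thus present among genes of every outcome, in 2 of the 9 genes that rose and have a window, 1 of the 2 that fell and 3 of the 15 without a call. The core of the gamma-activated site, written TTC, any 3 bases and GAA and searched in the same way, was in 5 of 35 (14.3%), against 8.30% of all windows. Its 5 genes were Isg20, Samhd1, Ifi35, Adar and Eif2ak2, of which the first 2 rose, and Eif2ak2 holds both motifs. A match describes letters only. The stretches upstream of the start site are shown with the ISRE core in capitals, because they let a gene that rose be set beside one that did not and one that fell. They are written 5′ to 3′ in the direction of the gene, which is the minus strand for all but Tdrd7. For Isg15 (chr4:156200860-156200911) the 3 overlapping matches run together, for Phf11b the stretch is chr14:59341356-59341395, for Rsad2 chr12:26456548-26456587, for Lgals9 chr11:78984955-78984994 and for Tdrd7 chr4:45972091-45972130. In Rsad2 and Lgals9 the core lies on the strand opposite to the gene, so its reverse complement is what the capitals show. Tdrd7 has 3 windows, of which 1 holds the core. That window starts at 45972047, inside the span of the gene, which begins at 45965027.
Isg15: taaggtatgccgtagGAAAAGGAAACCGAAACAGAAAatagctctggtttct
Phf11b: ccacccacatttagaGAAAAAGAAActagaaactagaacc
Rsad2: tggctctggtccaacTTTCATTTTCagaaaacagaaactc
Lgals9: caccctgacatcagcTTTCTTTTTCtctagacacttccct
Tdrd7: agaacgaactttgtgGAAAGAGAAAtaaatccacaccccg

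ISG15 conjugation attaches the small ubiquitin-like protein Isg15 to other proteins, with Ube2l6 as the conjugating enzyme, Herc6 as the main ligase of the mouse and Usp18 as the protease that removes it. Usp18, which also blocks signalling at the interferon receptor, was the only one of these 4 genes called. It (Entrez gene 24110, chromosome 6, 121245906 to 121270917) was at 502, 530.4, 845 and 743 CPM. The groups did not overlap, and the log2 fold change was 0.62 ± 0.12 (edgeR adjusted p = 0.00826). Without BFP-positive replicate 1 it was 0.53 with adjusted p = 0.0782, and the call was lost. Isg15 (Entrez gene 100038882, chromosome 4, 156199424 to 156200818), the gene whose promoter holds the run of 3 ISRE cores, was at 598, 639, 713 and 671 CPM. Its BFP-positive values both lay above the BFP-negative ones, without a call (log2 fold change of 0.16 ± 0.11, adjusted p = 0.438). Ube2l6 was at 281, 341, 325 and 361 CPM, which overlap (log2 fold change of 0.14 ± 0.14). Herc6 was at 33.7, 17.7, 46.4 and 30.9 CPM, with replicate 1 above replicate 2 in both groups (log2 fold change of 0.59 ± 0.32, adjusted p = 0.303). Of its exonic bases, 13.7% are shared with Gm45193 on the same strand. Without BFP-negative replicate 1, the higher of its group, the Herc6 value was 1.14, with a single library left in that group. Uba7, the activating enzyme of the same cascade, belongs to the list of other interferon-stimulated families and is named here after its values were seen. It rose from 110 ± 10.9 to 213 ± 6.31 CPM (SD, n = 2; log2 fold change 0.95 ± 0.14, adjusted p = 0.00218).

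Rsad2, Cmpk2 and Samhd1 act on nucleotides, and all 3 rose. Rsad2 encodes viperin, which makes a chain-terminating nucleotide, Cmpk2 encodes a mitochondrial nucleotide kinase, and Samhd1 encodes an enzyme that breaks down deoxynucleotides. Rsad2 (chromosome 12, 26442743 to 26456452) and Cmpk2 (chromosome 12, 26469117 to 26479837) are neighbours that point away from each other, 12.8 kb apart in GENCODE M21. Cmpk2 was at 6.43, 9.62, 30.7 and 30.4 CPM, a 3.80-fold rise (log2 fold change of 1.93 ± 0.30, adjusted p = 0.00297). Rsad2, whose upstream stretch holds 1 ISRE core, was at 34.3, 33.1, 60.4 and 67.3 CPM, a 1.89-fold rise (log2 fold change of 0.92 ± 0.19, adjusted p = 0.0112). Without BFP-positive replicate 2 its value was 0.84 with adjusted p = 0.0633. The neighbours thus both rose, from a lower level in Cmpk2 (log2 RPKM 1.34 in BFP-negative cells) than in Rsad2 (3.19), and whether their folds differ was not tested. Samhd1 (Entrez gene 56045, chromosome 2, 157097534 to 157135096) was at 92.2, 78.7, 167 and 182 CPM, a 2.04-fold rise (log2 fold change of 1.03 ± 0.15, adjusted p = 0.00217).

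Of the 7 genes of RNA sensing, editing and decay, 1 was called, as higher (14.3%, against 7.60% of all genes tested). Isg20, which encodes an exonuclease that degrades RNA (Entrez gene 57444, chromosome 7, 78913396 to 78920396), was at 23.5, 29.2, 131 and 151 CPM. That is a 5.34-fold rise, the second largest of the 34 tested genes (log2 fold change of 2.42 ± 0.19, adjusted p = 3.47e-05). Eif2ak2, the gene of the double-stranded RNA kinase PKR, was at 15.03, 17.9, 14.1 and 15.1 CPM (log2 fold change of -0.17 ± 0.30). Adar, which edits adenosine in double-stranded RNA, was at 98.6, 102, 92.0 and 117 CPM (log2 fold change of 0.06 ± 0.17). The groups overlapped for both, and 16.8% of the exonic bases of Adar are shared with Chrnb2 on the opposite strand. Pnpt1, a mitochondrial RNA exonuclease, had a log2 fold change of -0.46 ± 0.34, and its groups overlapped too. Helz2, a helicase and nuclear receptor coactivator, had a log2 fold change of 0.21 ± 0.23. Znfx1, a helicase-domain protein that binds viral RNA, was at 23.4, 32.8, 42.7 and 46.5 CPM, with its groups apart (log2 fold change of 0.67 ± 0.23, adjusted p = 0.0992). Without BFP-negative replicate 2 the Znfx1 value was 0.95, with a single library left in that group. Tdrd7, a Tudor-domain protein, was at 11.1, 11.04, 13.5 and 29.0 CPM, so its difference rested on BFP-positive replicate 2 (log2 fold change of 0.94 ± 0.38, adjusted p = 0.156). Without BFP-positive replicate 1, which left a single library in that group, the Tdrd7 value was 1.39. Without BFP-positive replicate 2 it was 0.29.

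Among genes of nuclear bodies and chromatin, the Phf11 pair rose and the others did not pass. Phf11b and Phf11d encode PHD-finger proteins and lie 6.06 kb apart on chromosome 14. Phf11b (chromosome 14, 59320964 to 59341388) was at 120.0, 112, 291 and 268 CPM (log2 fold change of 1.26 ± 0.13, adjusted p = 0.000291). Phf11d (chromosome 14, 59347407 to 59365490) was at 30.6, 25.6, 91.5 and 70.6 CPM (log2 fold change of 1.53 ± 0.21, adjusted p = 0.00122). They belong to a cluster of near-identical copies, so the split of reads between them is uncertain. Pml, the scaffold of the nuclear bodies named after it, was at 164, 163, 161 and 169.8 CPM, nearly equal in all 4 libraries (log2 fold change of 0.01 ± 0.13). Sp100, another component of these bodies, had a log2 fold change of 0.25 ± 0.17, and Sp110, a related gene, -0.01 ± 0.18. Sp100 and Sp110 also have similar neighbours on chromosome 1, so their counts share that uncertainty. Pml and Sp110 changed sign under other settings, with ranges of -0.05 to 0.05 and -0.09 to 0.10.

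Nmi and Ifi35 encode partner proteins that bind each other, and 1 of the 2 was called. Nmi (Entrez gene 64685, chromosome 2, 51948498 to 51973489) was at 30.4, 29.97, 63.1 and 55.2 CPM (log2 fold change of 0.97 ± 0.20, adjusted p = 0.0103). Without BFP-positive replicate 1 its adjusted p was 0.0556. Ifi35 was more abundant, at 458, 426, 576 and 521 CPM, with the groups apart but no call (log2 fold change of 0.31 ± 0.12, adjusted p = 0.138). Of the exonic bases of Ifi35, 16.8% are shared with Gm11626 on the opposite strand.

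The small hydrophobic and cell-death linked genes held the gene with the highest log2 RPKM of the 35. Ifi27l2a, a small mitochondrial and nuclear-envelope protein of the ISG12 family (Entrez gene 76933, chromosome 12, 103433873 to 103443680), was at 2194, 2527, 3255 and 3588 CPM. It rose by a log2 fold change of 0.54 ± 0.11 (adjusted p = 0.0121), and the call was lost without BFP-positive replicate 2 (0.47, adjusted p = 0.0967). Its relative Ifi27, 1.93 kb away in GENCODE M21 and on the opposite strand, was at 147, 149.8, 120.4 and 141 CPM, lower in both BFP-positive libraries without a call (log2 fold change of -0.19 ± 0.15, adjusted p = 0.495). The RefSeq spans of these neighbours overlap and the libraries do not mark strand, so reads in the shared stretch cannot be told apart. Xaf1, a pro-apoptotic antagonist of XIAP (Entrez gene 327959, chromosome 11, 72301461 to 72313733), was at 117, 77.1, 184 and 160.4 CPM (log2 fold change of 0.83 ± 0.20, adjusted p = 0.0235). It was no longer called without BFP-negative replicate 2 (0.58, adjusted p = 0.0535) and without BFP-positive replicate 1 (0.73, adjusted p = 0.0615).

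Of 3 genes with surface or secreted products, 1 fell and the others did not pass. Lgals9, which encodes the secreted lectin galectin-9 (Entrez gene 16859, chromosome 11, 78962979 to 78984924), was at 1017, 1064, 707 and 756 CPM. It fell 1.42-fold (log2 fold change of -0.51 ± 0.11, adjusted p = 0.0151), and its upstream stretch is among those shown with an ISRE core. The size changed little without BFP-positive replicates 1 or 2 (-0.46 and -0.55), but the call was lost in both cases (adjusted p = 0.138 and 0.0675). Lgals3bp, a secreted binding partner of galectins, was at 272, 408, 265 and 324 CPM, which overlap (log2 fold change of -0.21 ± 0.19). The Lgals3bp value turned to 0.13 when BFP-negative replicate 2 was left out. Ly6e, a membrane-anchored protein that restricts coronavirus entry, was at 3393, 4236, 4157 and 5072 CPM. Replicate 2 was above replicate 1 in both groups, and the groups overlapped, while BFP-positive over BFP-negative within a replicate number was 0.29 and 0.26 on the log2 scale (log2 fold change of 0.27 ± 0.13, adjusted p = 0.241). Without BFP-negative replicate 2, the higher of its group, the Ly6e value was 0.46, with a single library left in that group.

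Of the antiviral GTPases, Mx2 and Gvin1 were scarce, and Mx1 had more counts. Mx1 encodes a dynamin-like GTPase that blocks influenza virus in mice with an intact gene; C57BL/6 carries a deletion in it. It was at 14.7, 10.9, 8.84 and 11.5 CPM, which overlap (log2 fold change of -0.33 ± 0.35). Mx2, its neighbour on chromosome 16, had 42 and 23 counts in the BFP-negative and 16 and 17 in the BFP-positive libraries (log2 fold change of -0.90 ± 0.82, adjusted p = 0.566). Gvin1, a very large interferon-inducible GTPase with several near-identical copies, had 15, 5, 5 and 6 counts and was not tested. Such counts give little precision, as the SE of Mx2 shows.

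The remaining genes held both the largest rise and the other fall. Rtp4, which encodes a receptor transporter protein known to dampen the interferon response (Entrez gene 67775, chromosome 16, 23520219 to 23614222), was at 23.3, 24.4, 175 and 172 CPM. The replicates were nearly equal within each group, and the 7.26-fold rise was the largest of the 34 tested genes (log2 fold change of 2.86 ± 0.16, adjusted p = 5.90e-06). Of the exonic bases of Rtp4, 13.9% are shared with Gm45338 on the same strand. Epsti1, named for its induction by contact between epithelial and stromal cells (Entrez gene 108670, chromosome 14, 77904239 to 78002656), was at 15.4, 10.2, 39.5 and 44.7 CPM (log2 fold change of 1.72 ± 0.27, adjusted p = 0.00300). Samd9l, an antiviral protein that inhibits translation, was at 8.92, 4.97, 18.2 and 11.4 CPM (log2 fold change of 1.09 ± 0.42, adjusted p = 0.135). Its groups were apart, and without BFP-negative replicate 1 the value was 1.58, with a single library left in that group. Tor3a, an ATPase of the endoplasmic reticulum, had a log2 fold change of 0.19 ± 0.14. Ifi44 (Entrez gene 99899, chromosome 3, 151730922 to 151749910), a cytosolic interferon-induced protein, was at 113, 90.7, 57.0 and 70.0 CPM. It fell 1.61-fold (log2 fold change of -0.69 ± 0.19, adjusted p = 0.0408), and the call was lost without BFP-negative replicate 1 (-0.51, adjusted p = 0.170) or BFP-positive replicate 1 (-0.54, adjusted p = 0.212).

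**Figure D3:**
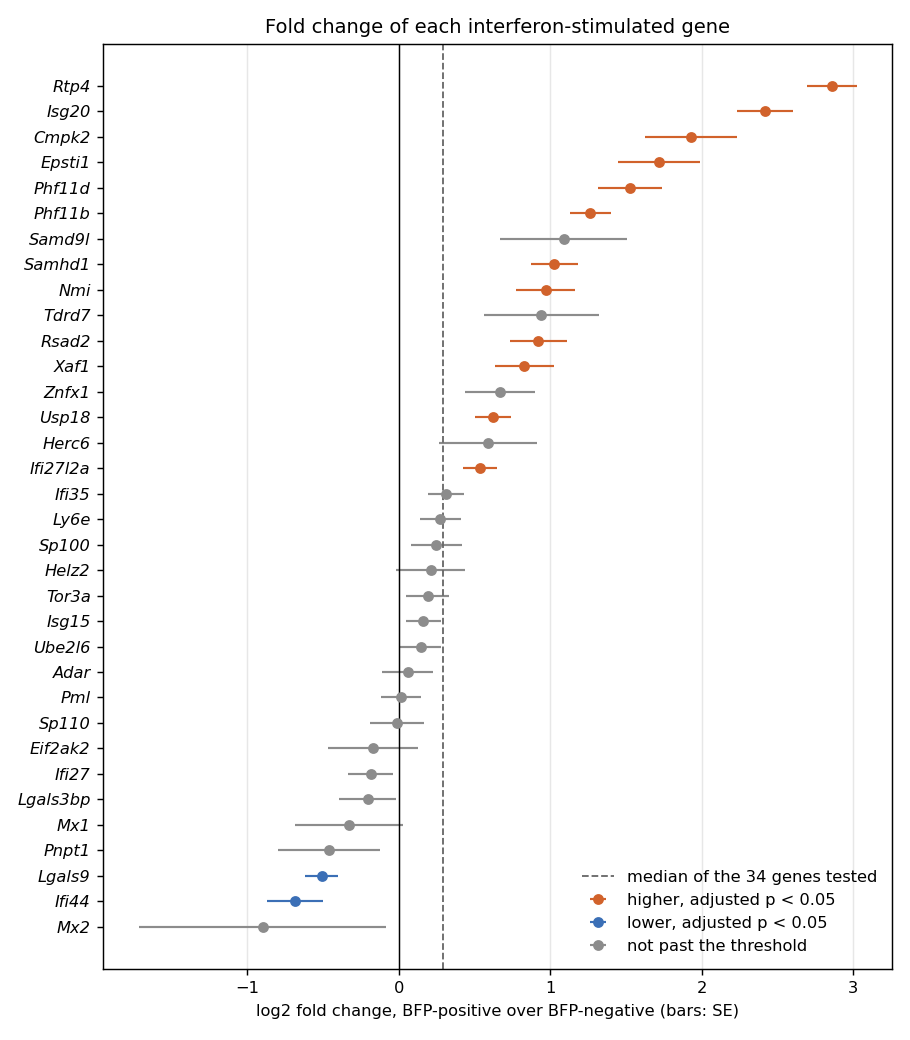
log2 fold change of each tested gene, BFP-positive over BFP-negative, with bars of 1 SE, coloured by call; the solid line marks 0 and the dashed line the median of 0.29. The values fall from 2.86 in Rtp4 to -0.90 in Mx2, whose SE of 0.82 is the widest.

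How firmly each of the 14 calls stood differed. Rtp4, Isg20, Cmpk2, Epsti1, Phf11d, Phf11b and Samhd1 passed in all 12 alternative analyses, with each library left out in turn among them. These 7 were also the genes that rose at least 2-fold. The other 7 calls, of which 5 were rises below 2-fold and 2 were falls, were each lost in at least 1 alternative. None of the 14 called genes changed sign in the 12 alternatives.

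**Figure D4:**
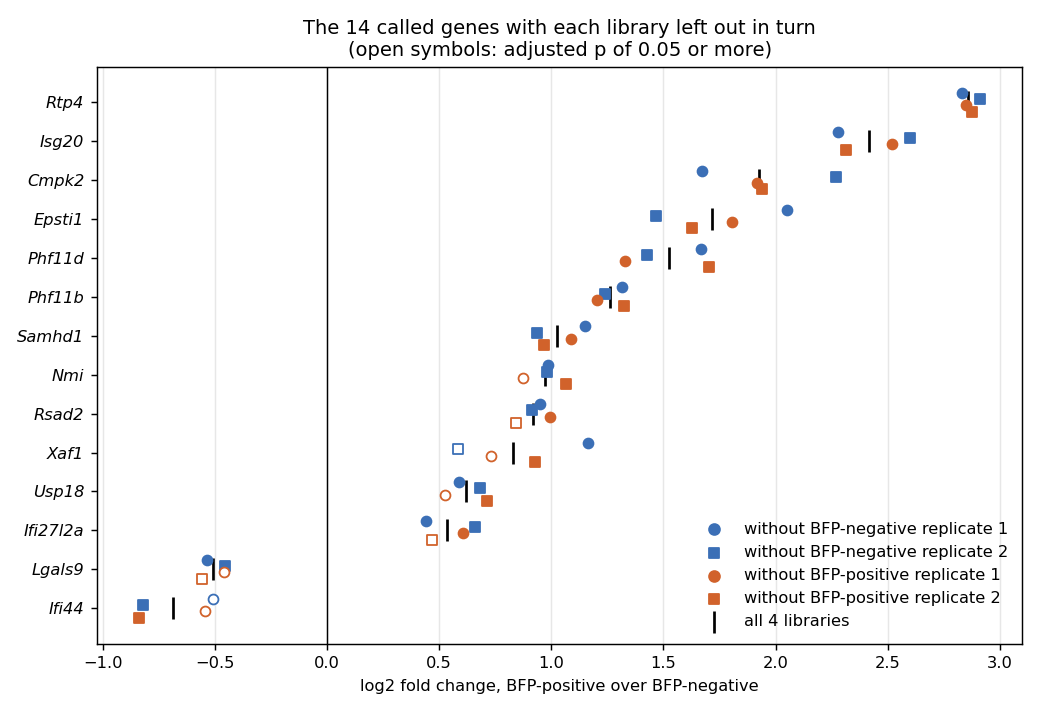
log2 fold change of the 14 called genes with each library left out in turn (circles and squares for replicates 1 and 2, colours for the group of the library left out), beside the value from all 4 libraries (black bars). Open symbols mark an adjusted p of 0.05 or more; Rtp4, Isg20, Cmpk2, Epsti1, Phf11d, Phf11b and Samhd1 have filled symbols throughout.

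Other genes of the interferon pathway are given for comparison from lists that overlap in no gene with the 35. Of 14 tested genes of interferon signalling, 4 rose (28.6%, against 7.60% of all genes tested). The others did not pass, and the median log2 fold change of the 14 was 0.27. Those that rose were the factors Irf1 (99.2 ± 5.78 to 187 ± 2.09 CPM; log2 fold change 0.91 ± 0.14, adjusted p = 0.00266) and Irf7 and the feedback inhibitors Socs3 (88.7 ± 4.06 to 171 ± 24.2 CPM, SD, n = 2) and Socs1. Stat2 and Irf9, named after their values were seen, did not pass, with log2 fold changes of 0.35 ± 0.20 and 0.30 ± 0.12. Of 32 tested genes of the Oas, Ifit, Gbp, Parp, sensor and related families, 16 rose and 1 fell, with a median log2 fold change of 0.90. Ifitm3, a membrane protein that blocks viral entry, rose from 333 ± 20.3 to 1889 ± 235 CPM, and Oas1a, which makes the activator of RNase L, had a log2 fold change of 3.32 ± 0.22. Thus 12 of 34 rose among the genes described here and 16 of 32 in those families, a difference that was not tested. An ISRE core was in 67.9% of the 28 promoter windows of those families, against 17.1% of the 35 windows above. Counted by gene, it was in 72.0% of the 25 genes with a window in those families. Of the 35 genes described here only 26 have a window, and 23.1% of these hold the core.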

How the data were processed

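Libraries were made with a SMART-Seq kit, per the labels' protocols; this chemistry marks neither strand nor molecules. The authors deposited raw counts per gene and log2 RPKM values per library; the builds GRCm38 and mm10 and the tools limma, featureCounts and Subread are listed in the submitters' processing notes, and versions, strand setting and the prior count of the log2 RPKM values are not given in the sources used here. A population label and the design text disagree on CXCL10 in the BFP-negative cells, so the groups follow the titles, which also give same-numbered libraries a code in common. Library totals were 11868254 to 12570117 counts, and 1 count was worth 0.0789 to 0.0858 CPM.

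The test was edgeR 4.0.16 (R 4.3.3), quasi-likelihood, two-sided, TMM-scaled, group only, with filterByExpr (minimum count 10, minimum total 15), which kept 11706 genes and left 2 residual degrees of freedom. The biological coefficient of variation was 24.7%. P-values were adjusted by Benjamini-Hochberg at a threshold of 0.05, and the SE is the log2 fold change over the square root of F. The script was tested on simulated data. Alternatives used DESeq2 1.42.0 (size factors, and its test), limma 3.58.1 (voom, and on the log2 RPKM values), library totals, no filter, robust dispersion, a replicate block and leaving out each library. Leaving out a library left a single library in its group, so a call gained only there carries little weight. Every member is named by rule; other lists are named by their 2 smallest p-values, except where stated and where a list's called genes are few. The members and lists were chosen with earlier results of these data known. Positions and promoters are RefSeq's on GRCm38.p6, and exon overlaps and gaps are from GENCODE M21. Some list genes are not reported here.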

Additional observations from a re-analysis of the deposited data

How the results depend on the processing

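The 12 rises and 2 falls were found again as the same genes with DESeq2 size factors, library totals alone, no filter on low counts, DESeq2's test, limma-voom and robust dispersion. With limma on the deposited log2 RPKM values 10 rose and 1 fell, as Ifi27l2a, Xaf1 and Ifi44 did not pass. With each library left out, 10 to 14 rose and 0 to 2 fell, and the median log2 fold change ran from 0.26 to 0.37; the 0 in edgeR was without BFP-positive replicate 1, where 2 members were lower at an unadjusted p under 0.05 and no other tool was run. The median was 0.23 by library totals alone and 0.23 by log2 RPKM, where the median of all genes also lay lower, at -0.09 and -0.08. With the replicate number as a block, 15 members rose, with Ifi35, Ly6e and Znfx1 added (edgeR adjusted p = 0.0276, 0.00704 and 0.0438, against 0.138, 0.241 and 0.0992 without the block), and over all genes the number lower went from 411 to 760. The titles give the BFP-negative and BFP-positive library of each number one code in common, which the labels do not explain; same-numbered libraries deviated together weakly (correlation 0.08 across genes). That correlation runs over all genes tested, scarce ones included, so it cannot decide whether the libraries are true pairs. The labels do not say either. The block was kept as an alternative because the labels' methods name no design. Over all genes, leaving out a library gave 559 (without BFP-positive replicate 2) to 921 higher and 245 (without BFP-positive replicate 1) to 408 lower. Adar, Pml, Sp110 and Lgals3bp, none of them called, changed sign in at least 1 alternative. With 2 libraries a group, genes such as Mx2 and Gvin1 were limited by their counts.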
